A study of Schizosaccharomyces pombe with 26 samples.

Results

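The subtelomeric genes of chromosomes I and II of fission yeast lie near the ends of those 2 chromosomes. They were taken as the array features whose systematic name begins with one of 14 cosmid prefixes (SPAC212., SPAC977., SPAC1F8., SPAC11D3., SPAC5H10., SPAC186., SPAC750., SPAC869., SPBC1348., SPBPB10D8., SPBC1683., SPBPB2B2., SPBPB21E7. and SPBCPT2R1.), with 6 named genes of those cosmids left out. The rule used names and no measured value, though members were chosen with earlier results of these data known. It took 123 names, of which 107 had a spot among 4960 intergenic (IGR) features and 121 had a spot among 4889 coding (ORF) features. The prefixes SPBC1348., SPBPB21E7. and SPBCPT2R1. matched no feature used here. In the gene order of the RefSeq annotation (assembly ASM294v3), 59 names lay on the left arm of chromosome I, with 0 to 65 protein-coding genes between them and the end of the sequence. On the right arm of chromosome I there were 25 names (0 to 26 genes), on the left arm of chromosome II 18 names (26 to 50 genes) and on the right arm of chromosome II 17 names (5 to 21 genes). The other 4 names (SPBPB2B2.03c, SPBPB2B2.04, SPBPB2B2.20c and SPBPB10D8.08) had no entry there. The lists used below hold 48 members whose annotated product has an enzyme name ending in ase, 21 membrane transporters, 4 galactose genes and the telomere-linked helicase gene tlh1. The other 49 members are in none of these lists, and they include SPAC750.08c, annotated as a malic enzyme. The labels and files do not name the genome build behind the spots, so no coordinate or sequence is printed, and which side of a gene an IGR feature covers is not stated.

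Mediator is the complex that passes signals from gene-specific activators to RNA polymerase II, and Med15 is a subunit of its tail. Hrp1 is a chromatin remodeller of the CHD family, enzymes that use ATP to assemble, space or remove nucleosomes. The ends of chromosomes I and II of this yeast carry blocks of heterochromatin, families of near-identical genes and many genes for nutrient uptake and metabolism that respond to starvation or stress. Histone H3 is part of every nucleosome, so H3 recovered by immunoprecipitation relative to input DNA is a measure of nucleosome occupancy.

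H3 was immunoprecipitated from delta-hrp1 (3 samples), delta-med15 (2 samples) and wildtype cells (2 samples), and Med15 was immunoprecipitated through a myc tag from Med15-myc cells (3 samples). Each of these numbers holds for the IGR and for the ORF array, and the submitters describe the replicates as biological. All cultures were in mid-log growth in YES, a rich medium with yeast extract and glucose, when they were fixed with formaldehyde, and sonicated to fragments of 600 to 1500 bp. The recovered DNA was amplified and hybridised against the input DNA of the same preparation with the other dye. Both deletion strains lack the gene named, and the labels give no untagged control for the myc immunoprecipitation. In delta-hrp1 2 of the samples had the ChIP DNA in Cy3 and 1 in Cy5, in delta-med15 1 of each, in Med15-myc 2 in Cy3 and 1 in Cy5, and in wildtype both in Cy3.

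At the deleted genes the labels held. The H3 signal (the deposited log2 ChIP signal over the array median, without division by input) over the hrp1 ORF was -5.22, -5.99 and -4.52 in delta-hrp1, 1.86 and 1.41 in delta-med15, and 1.49 and 1.41 in wildtype. Over the med15 ORF it was -4.75 and -4.02 in delta-med15, -0.57, 0.23 and -0.26 in delta-hrp1, and -1.78 and -1.45 in wildtype. The median signal over local background was 5.12 to 6100 in the Cy3 channels and 1.55 to 18.2 in the Cy5 channels, whichever DNA they held. Ratios as scanned of opposite dye correlated at -0.57 to -0.02 across all features within a strain, and after background correction within-strain pairs correlated at 0.09 to 0.71. Every array held DNA of a single strain, and no hybridisation time entered the models, so these fits cannot tell time and strain apart.

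H3 over input, the log2 ratio of ChIP to input minus the array median, could be formed for both deletion strains but not for wildtype, whose files hold the ChIP signal alone. As scanned, limma (dye as a covariate, Benjamini-Hochberg adjustment over all features, threshold 0.05, two-sided) called 0 of 107 IGR members in delta-hrp1 and 0 in delta-med15, where it called 0% of all features too. On the ORF array it also called 0 of 121 members in each strain (0% of all features). Members with an unadjusted p under 0.05 numbered 15 and 2 on the IGR array and 23 and 7 on the ORF array, in delta-hrp1 and delta-med15 in that order. The largest as-scanned values in delta-hrp1, none past the test, were 1.85 to 4.25 at the IGR features SPAC977.15, SPAC977.14c, hsp3104, SPAC186.06 and SPAC212.07c and -2.99 to -1.50 at SPAC11D3.04c, SPAC1F8.08, SPAC11D3.09, SPAC5H10.03 and fex1. Over ORFs they were 0.99 to 1.57 at SPBPB2B2.15, SPAC186.08c, SPAC212.08c, SPAC11D3.06 and SPAC186.03 and -2.67 to -1.07 at SPAC1F8.08, SPAC750.08c, SPAC11D3.03c, SPAC5H10.07 and SPAC11D3.04c. In delta-med15 the IGR extremes were 0.86 to 1.84 (SPAC977.15, SPAC869.04, SPAC212.09c, SPAC869.03c and SPAC5H10.04) and -2.63 to -1.20 (SPAC1F8.08, amf1, SPAC5H10.03, tgd1 and hsp3104). The ORF extremes in delta-med15 were 0.50 to 0.79 (SPAC11D3.06, SPBPB2B2.05, SPBC1683.04, SPAC977.17 and SPBPB10D8.02c) and -3.87 to -0.97 (SPAC1F8.08, SPAC11D3.01c, SPAC11D3.03c, SPAC11D3.15 and SPAC11D3.04c). All further values of H3 over input are background-corrected (normexp with an offset of 50), where the calls differ.

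After background correction, 22 of 107 IGR members differed from the array median in delta-hrp1, 14 of them higher and 8 lower, against 16.5% of all IGR features (6.29% higher and 10.2% lower). The members' shares were 13.1% higher and 7.48% lower. With loess in place of the background correction the count was 30, with 22 higher and 8 lower, against 18.1% of all features (6.31% higher and 11.8% lower). The higher members with a place in the gene order had 1 to 25 protein-coding genes between them and the chromosome end (13 features), and the 8 lower members had 34 to 58. Arm and distance overlap here, since the right arms hold members only within 26 genes of the end and the left arm of chromosome II only from 26 genes on. On the right arm of chromosome I 7 of 21 members were higher and 0 lower, with a median of 0.77, and on the right arm of chromosome II 1 of 17 (SPBPB2B2.06c) was higher and 0 lower, with a median of 0.45. The left arm of chromosome I had 5 higher (SPAC212.02, SPAC212.07c, SPAC212.10, SPAC977.03 and SPAC977.15) and 6 lower of 51 (median 0.26), and the left arm of chromosome II had 0 higher and 2 lower of 14 (pcl1 and pho841, median -0.09). Over all members the median was 0.36, and over all IGR features 0.04. The count was 2 without delta-hrp1 replicate 3 (SPAC186.06 and SPAC5H10.03) and 12 without delta-hrp1 replicate 2.

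**Figure D1:**
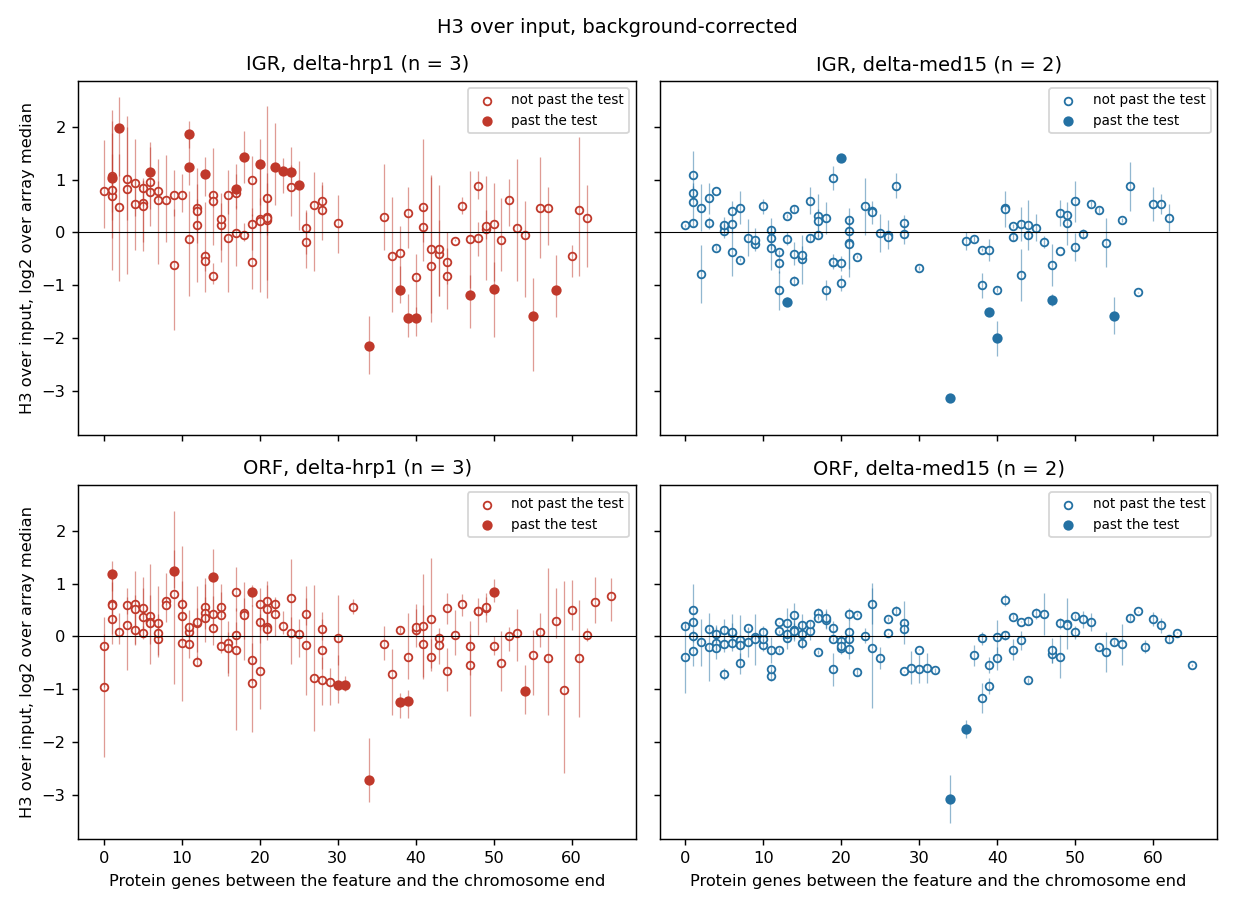
Background-corrected H3 over input (log2 over the array median) of the members, by the number of protein-coding genes between the feature and the chromosome end, for delta-hrp1 (left, n = 3) and delta-med15 (right, n = 2), on the IGR (top) and ORF arrays (bottom). Points are means over samples, bars run from the lowest to the highest sample, and filled points passed limma's test. In delta-hrp1 the filled IGR points near the end lie above 0 and those 34 to 58 genes from it lie below 0, and SPAC1F8.08, 34 genes from the end, is the lowest point of each panel.

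Sample medians were also taken in 4 bins of gene order. For the 22 IGR members with 0 to 9 genes to the end, background-corrected median H3 over input was 1.48, 0.89 and 0.24 in delta-hrp1 and 0.10 and 0.19 in delta-med15. It was 0.51, 0.54 and 0.46 in delta-hrp1 and -0.04 and -0.19 in delta-med15 for the 25 members with 10 to 19 genes, and 0.11, 0.43 and 0.52 in delta-hrp1 and -0.12 and -0.21 in delta-med15 for the 25 members with 20 to 39 genes. For the 31 members with 40 to 65 genes it was -0.24, -0.16 and -0.29 in delta-hrp1 and 0.11 and 0.02 in delta-med15. After background correction the farthest bin was thus the lowest in every delta-hrp1 sample, while replicate 3, with H3 in Cy5, was higher at 10 to 39 genes than at 0 to 9. As scanned, the delta-hrp1 medians were 2.64, 1.55 and -0.71 in the nearest bin and -0.32, -0.46 and -0.43 in the farthest, so that the Cy5 sample was lower near the end and the 2 Cy3 samples were higher there. Over ORFs the background-corrected medians near the end were 0.23, 0.31 and 0.51 in delta-hrp1, against -0.01, 0.01 and 0.46 in the far bin, so the sample in Cy5 showed nearly the same value in both. The input signal moved with the gene order as well. Its IGR medians were 1.98, 1.97 and 1.86 near the end and 0.22, -0.12 and 0.09 far from it in delta-hrp1, and 1.74 and 1.80 near and -0.61 and -0.43 far in delta-med15. Its part in the H3 values was not tested. The H3 signal, not divided by input, was also higher near the end than far from it in every H3 sample, wildtype included. In delta-hrp1 its IGR medians were 3.58, 2.69 and 1.91 near and -0.28, -0.6 and -0.03 far. In wildtype the IGR medians were 2.4 and 2.74 near and 0.0 and -0.23 far. Wildtype ORF medians were 1.12 and 1.18 near and -0.2 and -0.45 far. Whether the gradient in H3 over input is particular to delta-hrp1 was not tested against wildtype, which has no such ratio.

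Many of the members nearest the ends are members of repeated gene families. Of 113 protein-coding members, 37 (32.7%) had at least 1 other locus with 95% identity over 200 bases, against 1.55% of all 4970 spotted protein-coding genes. ORF spots of such genes can bind DNA of every copy, so their values cannot be given to 1 locus. The search used the span of the gene itself, so whether an IGR spot is repeated was not measured. Of the IGR features named after a gene with such a copy, 2 of 28 were higher in delta-hrp1 (SPAC977.03 and SPAC212.02) and 0 lower, with a median of 0.55. Of those named after a gene with no copy, 9 of 69 were higher and 8 lower, with a median of 0.15. Of all IGR features 6.29% were higher and 10.2% lower. The H3 signal and the input also differed by copies. In wildtype the sample medians of the IGR H3 signal were 2.0 to 2.03 with a copy and -0.0 to 0.16 with none. Those of the IGR input in delta-hrp1 were 1.68 to 1.86 with a copy and -0.1 to 0.27 with none. Copies and distance from the end overlap, and their parts in these values were not tested.

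Among the enzyme genes, 7 of 44 IGR features were higher and 3 lower in delta-hrp1 (median 0.26), against 6.29% higher and 10.2% lower of all IGR features. The highest was SPAC186.06, annotated as an isomerase, at 1.87, 2.11 and 1.60 in delta-hrp1 and 0.10 and -0.32 in delta-med15. All 3 delta-hrp1 samples lay above both delta-med15 samples, and the dye-adjusted level in delta-hrp1 was 1.85 ± 0.35 (SE, n = 3, adjusted p = 4.91e-06). SPAC977.03, a methyltransferase gene with 3 further copies, stood at 0.89, 0.99 and 1.81 in delta-hrp1 (1.35 ± 0.35, adjusted p = 0.00182) and at 0.26 and -0.18 in delta-med15. SPBPB2B2.06c, a phosphoprotein phosphatase gene, reached 1.93, 1.43 and 0.94 in delta-hrp1 (adjusted p = 0.00246) and -0.04 and 0.58 in delta-med15. The groups did not overlap at SPAC977.03 or SPBPB2B2.06c. Like SPAC186.06, both were picked by their delta-hrp1 level, so this is no test of a strain difference. Set directly against delta-med15, limma called 0 of 107 IGR members after background correction (0.0605% of all features). The IGR input was also lower in delta-hrp1 than in delta-med15 at SPBPB2B2.06c and, without passing, at SPAC186.06. Its part in these ratios was not tested. SPAC977.15, of the dienelactone hydrolase family, had 0.52, 2.06 and 1.15 in delta-hrp1 (adjusted p = 0.00516) and -0.44 and -0.48 in delta-med15. The remaining higher enzyme genes in delta-hrp1 were pcm2, which encodes a protein-repair methyltransferase (1.27, 1.18 and 0.96 in delta-hrp1), the amidase gene SPAC869.01 (0.92) and the formamidase-like gene SPAC869.04 (1.18). SPAC869.04 was high in both strains, at 1.77, 1.58 and 0.52 in delta-hrp1 and 1.39 and 1.42 in delta-med15 (1.41 ± 0.41, adjusted p = 0.0154), and was the 1 member called higher in delta-med15.

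The 3 lower enzyme genes in delta-hrp1 were SPAC5H10.03, SPAC11D3.04c and adh4. SPAC5H10.03, of the phosphoglycerate mutase family, had -0.87, -2.63 and -1.24 in delta-hrp1 (-1.58 ± 0.35, adjusted p = 0.00016) and -1.93 and -1.22 in delta-med15 (adjusted p = 0.00432). SPAC11D3.04c, with a polyketide cyclase domain, was at -1.98, -1.72 and -1.17 in delta-hrp1 (adjusted p = 0.000211) and -1.48 and -1.54 in delta-med15 (adjusted p = 0.00724). Values of the strains overlapped at both genes, and both passed the test in each strain. The IGR input of SPAC5H10.03 was higher in delta-hrp1 than in delta-med15, and its part in the ratio was not tested. The alcohol dehydrogenase gene adh4 stood at -0.43, -1.25 and -1.60 in delta-hrp1 (adjusted p = 0.00904) and -1.12 and -1.15 in delta-med15, where it did not pass.

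Against 6.29% higher and 10.2% lower of all IGR features, 0 of 17 transporter features were higher and 3 were lower in delta-hrp1 (median -0.12). They were mfs2, a major facilitator gene, at -1.41, -1.49 and -1.96 in delta-hrp1 (-1.66 ± 0.35, adjusted p = 6.29e-05) and -1.03 and -1.14 in delta-med15, the iron transporter gene pcl1, and the phosphate transporter gene pho841. At pcl1 the values were -1.80, -0.81 and -0.95 in delta-hrp1 (adjusted p = 0.00872) and -1.39 and -1.17 in delta-med15 (adjusted p = 0.0329). At pho841 they were -1.33, -1.31 and -0.63 in delta-hrp1 (adjusted p = 0.0316) and -0.77 and -1.24 in delta-med15. The strains overlapped at pcl1 and pho841. At mfs2, picked by its delta-hrp1 level, each delta-hrp1 sample lay below both delta-med15 samples.

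Of the 41 members in none of the lists, 6 were higher and 2 lower in delta-hrp1 (median 0.53), against 6.29% and 10.2% of all IGR features. SPAC212.07c, an annotated pseudogene with 2 protein-coding genes to the end of chromosome I, had 2.56, 2.33 and 1.07 in delta-hrp1 (1.79 ± 0.35, adjusted p = 1.17e-05) and 0.02 and 0.91 in delta-med15. SPBPB2B2.03c was at 2.00, 1.58 and 1.00 in delta-hrp1 (adjusted p = 0.00102) and -0.34 and 0.27 in delta-med15. No delta-hrp1 sample fell within the delta-med15 range at these features, which were also picked by their delta-hrp1 level. The other higher ones were SPAC212.02 (1.11), SPAC186.04c (1.06), SPAC869.09 (1.00) and SPAC212.10 (0.95). The lower ones were SPAC11D3.16c, at -1.99, -0.65 and -0.56 in delta-hrp1 (adjusted p = 0.0395), and SPAC1F8.08, which is described with its neighbours further on.

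In delta-med15, 7 of 107 IGR members passed, 1 higher and 6 lower, against 6.39% of all features (0.464% higher and 5.93% lower), and with loess 23 did, 7 higher and 16 lower, against 23.8% (8.43% higher and 15.3% lower). Besides SPAC869.04 above 0 and SPAC1F8.08, SPAC5H10.03, SPAC11D3.04c and pcl1 below 0, the transporter gene amf1 had -2.34 and -1.68 in delta-med15 (-2.01 ± 0.41, adjusted p = 8.79e-05). At amf1 the delta-hrp1 values were -1.54, -0.41 and -0.59. The dehydratase gene tgd1 was at -1.40 and -1.22 in delta-med15 (adjusted p = 0.0283) and -0.34, -0.57 and -0.73 in delta-hrp1. At both genes each delta-med15 sample lay below every delta-hrp1 sample. Both were picked by their delta-med15 level, and the direct comparison of the strains called neither. Below the single call above 0, the next highest members in delta-med15 were SPAC212.09c (1.09), SPAC869.03c (1.03), SPBPB10D8.02c (0.88) and SPAC5H10.04 (0.87), none past the test. The count was 1 without delta-med15 replicate 1 (SPAC1F8.08), 2 without delta-med15 replicate 2 (SPAC1F8.08 and amf1) and 13 without delta-hrp1 replicate 1.

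Over ORFs 11 of 121 members passed in delta-hrp1, 5 higher and 6 lower, against 9.41% of all ORF features (2.99% higher and 6.43% lower). With loess 30 did, 20 higher and 10 lower, against 17.8% (6.16% higher and 11.6% lower). The highest was SPAC186.08c, the lactate dehydrogenase gene, at 1.17, 0.93 and 1.63 in delta-hrp1 (1.31 ± 0.22, adjusted p = 0.00682) and 0.04 and -0.06 in delta-med15. SPAC212.08c, which encodes a GPI-anchored protein and has 3 further copies, had 1.43, 1.28 and 0.86 in delta-hrp1 (adjusted p = 0.0157) and 0.02 and 0.99 in delta-med15. The asparaginase gene SPAC186.03 (0.99), the transcription factor gene cha4 (0.85) and the urea transporter gene SPAC869.03c (0.79) were also higher in delta-hrp1. Lower there were SPAC1F8.08, SPAC11D3.03c (-1.26), SPAC11D3.04c (-1.24), the glyoxylase gene hsp3102 (-0.99) and the transporter genes SPBPB10D8.07c (-0.86) and SPBPB10D8.06c (-0.80), the last 2 of which have further copies. SPAC11D3.04c and SPAC1F8.08 were the 2 members called on both arrays in delta-hrp1, and the same count over all features was not made. In delta-med15 limma called 2 ORF members, both lower, against 1.7% of all features, and with loess 15, 1 higher and 14 lower, against 13.6% (3.38% higher and 10.3% lower). They were SPAC1F8.08 and SPAC11D3.01c, of the Con-6 family, which had -1.58 and -1.93 in delta-med15 (-1.75 ± 0.27, adjusted p = 0.0131) and 0.20, -0.17 and -0.44 in delta-hrp1. The next lowest in delta-med15 were SPAC11D3.03c (-1.16), SPAC11D3.04c (-0.94) and SPAC11D3.09 (-0.83), and the highest were SPBC1683.04, SPAC977.17, SPAC212.08c, SPBPB10D8.02c and adh4 (0.48 to 0.69), none past the test. For delta-hrp1 the count was 1 without replicate 3 (SPAC1F8.08) and 5 without replicate 2 (SPAC1F8.08, SPAC11D3.03c, SPAC11D3.04c, SPAC186.08c and SPAC750.08c), and for delta-med15 it was 1 without either delta-med15 sample (SPAC1F8.08).

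Set directly against delta-med15, H3 over input in delta-hrp1 differed at 0 of 107 IGR members as scanned (0% of all features) and at 0 after background correction (0.0605%, with 0.0403% higher and 0.0202% lower). It differed at 0 of 121 ORF members as scanned and after background correction (0% of all features in both). At an unadjusted p under 0.05 limma counted 3 and 8 members as scanned and 10 and 12 after correction, on the IGR and the ORF array. Loess gave 0 IGR members, against 0.121% of all features (0.101% higher and 0.0202% lower) and with 22 members at an unadjusted p under 0.05. It gave 2 higher ORF members, SPAC11D3.01c and SPAC1F8.08, against 0.0614% of all ORF features. The median difference of the IGR members was 0.35 as scanned and 0.33 after correction, against 0.05 and 0.04 over all features. That of the ORF members was 0.27 and 0.23, against 0.03 and 0.02. After correction the largest IGR differences, none past the test, were 1.30 to 1.96 at SPAC186.06, SPAC977.15, SPBPB2B2.03c, SPAC212.07c and SPAC977.03 and -0.99 to -0.65 at pan6, SPAC11D3.09, SPAC11D3.08c, SPAC11D3.16c and thi7. Over ORFs they were 1.24 to 1.60 at SPAC11D3.01c, gmh2, SPAC186.08c, SPAC977.15 and pfl8 and -1.11 to -0.70 at SPAC750.08c, SPBPB10D8.02c, SPBPB2B2.05, SPAC11D3.17 and hsp3102. As scanned the IGR extremes were 1.73 to 4.04 (hsp3104, SPAC977.14c, SPAC977.15, SPAC186.06 and SPBPB2B2.05) and -2.06 to -0.91 (SPAC11D3.09, SPAC11D3.04c, fex1, SPAC11D3.08c and SPAC11D3.16c). The ORF extremes as scanned were 1.47 to 1.83 (SPAC11D3.01c, SPAC11D3.15, SPBPB2B2.15, pfl8 and gmh2) and -1.85 to -1.14 (SPAC750.08c, SPBPB2B2.05, SPAC869.01, SPBPB10D8.02c and SPAC5H10.07).

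SPAC1F8.08, an uncharacterised gene on the left arm of chromosome I with 34 protein-coding genes to the end, had the lowest H3 over input of all members in both deletion strains. Over its IGR feature the values were -1.59, -2.19 and -2.69 in delta-hrp1 (-2.23 ± 0.35, adjusted p = 1.66e-08) and -3.11 and -3.16 in delta-med15 (-3.14 ± 0.41, adjusted p = 1.44e-11). Its ORF feature had -3.11, -3.12 and -1.93 in delta-hrp1 (-2.54 ± 0.21, adjusted p = 0.000116) and -2.63 and -3.53 in delta-med15 (-3.08 ± 0.25, adjusted p = 0.000132). All values lay below the array median, and the strains overlapped over the ORF and not over the IGR. The IGR input signal at this gene was 1.686, 2.147 and 4.193 in delta-hrp1, 0.84 and 1.19 in delta-med15, and 1.48, 0.61 and 1.34 in Med15-myc. The input difference between the deletions passed the test (1.85 ± 0.50, adjusted p = 0.00446), though not without delta-med15 replicate 1 or delta-hrp1 replicate 2 or 3, and its part in the IGR ratio was not tested. The H3 signal without division by input was 0.08, -0.14 and 1.44 over the IGR in delta-hrp1, -2.07 and -2.05 in delta-med15, and 0.21 and 0.66 in wildtype. The delta-med15 samples were thus below both wildtype samples (-2.91 ± 0.67, adjusted p = 0.0811, not past the test), and the delta-hrp1 samples overlapped wildtype. Over the ORF the H3 signal was -4.923, -3.531 and -2.149 in delta-hrp1, -4.37 and -5.78 in delta-med15, and -1.67 and -1.70 in wildtype. Every deletion sample was below both wildtype samples there, and both differences passed (delta-hrp1 -2.45 ± 0.50, adjusted p = 0.013, and delta-med15 -4.28 ± 0.57, adjusted p = 0.0182). Both share the wildtype samples. The delta-hrp1 difference fell short of the threshold without either wildtype sample, and the delta-med15 difference without any wildtype or delta-med15 sample or delta-hrp1 replicate 3.

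The same feature had the highest Med15-myc signal of the members. Med15-myc over input, background-corrected, was 2.42, 2.31 and 1.21 over the SPAC1F8.08 IGR (1.98 ± 0.36, n = 3, adjusted p = 0.000175). Over its ORF it was 2.14, 1.64 and 0.74 (1.51 ± 0.27, adjusted p = 0.0579, not past the test). All 6 values were above the array median. The nearest members with an IGR spot, hhy1 on the side of the chromosome end and SPAC11D3.01c on the other, had Med15-myc values of -0.39, 0.11 and 1.55 and of 0.37, -1.34 and 0.70, on both sides of the array median. Between hhy1 and SPAC1F8.08 lies pdc101, a pyruvate decarboxylase gene left out by the rule, whose IGR feature had a mean H3 over input of -3.42 in delta-hrp1 and -3.21 in delta-med15 and a mean Med15-myc over input of 2.45. The IGR features of the other 3 genes left out that had spots (str3, pdc102 and pfl9) ranged from -0.22 to 1.88 for H3 in delta-hrp1, from -0.86 to 0.05 in delta-med15 and from -0.78 to 0.78 for Med15-myc. Over the pdc101 ORF the means were -0.46, -0.88 and 0.52 in that order. Across members, H3 over input correlated with Med15-myc over input at Spearman's rho of 0.19 (delta-hrp1) and 0.05 (delta-med15) for IGR features. For ORF features rho was 0.4 and 0.27.

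**Figure D2:**
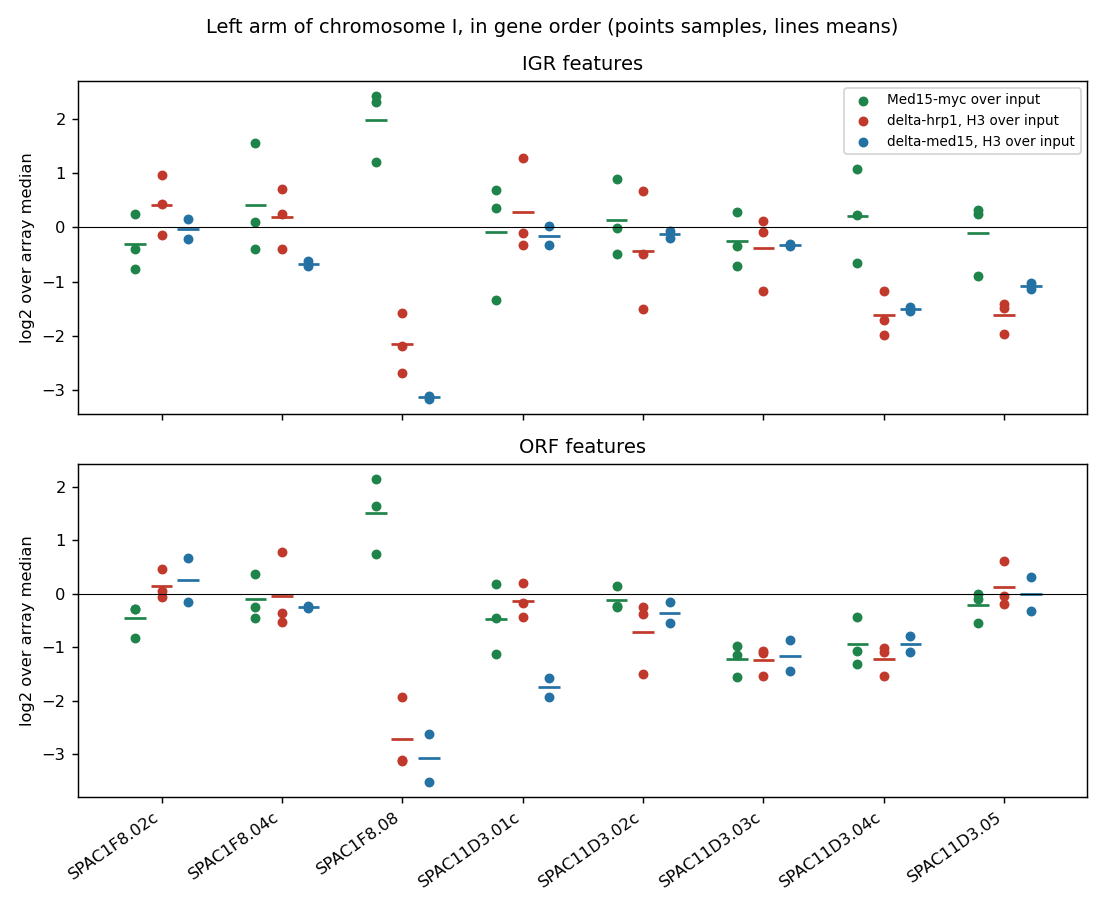
Background-corrected Med15-myc over input (green, n = 3) and H3 over input in delta-hrp1 (red, n = 3) and delta-med15 (blue, n = 2), as log2 over the array median, for SPAC1F8.08 and the neighbouring members spotted on both arrays, in gene order. Points are samples and lines are means. SPAC1F8.08 is the 1 gene shown with all Med15-myc points above 0 on both arrays, and it has the lowest H3 means.

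For Med15-myc, as scanned, limma called 0 of 107 IGR members and 0 of 121 ORF members (0% of all features on both arrays), with 1 and 5 at an unadjusted p under 0.05. After background correction it called 2 IGR members against 2.08% of all features (1.07% higher and 1.01% lower), SPAC1F8.08 higher and tgd1 lower. The sugar dehydratase gene tgd1 was at -1.05, -1.77 and -0.95 (-1.26 ± 0.35, adjusted p = 0.04), and it was also low for H3 in delta-med15. Over ORFs 2 members were lower against 0.593% of all features (0.164% higher and 0.43% lower). They were hsp3102, at -1.23, -0.96 and -1.53 (adjusted p = 0.0398), and SPAC11D3.03c, at -0.98, -1.14 and -1.56 (adjusted p = 0.0412). Both genes were also lower for H3 over ORFs in delta-hrp1. Without Med15-myc replicate 1 limma called 0 on either array (8 IGR and 12 ORF members at an unadjusted p under 0.05), without replicate 2 it called 1 IGR (SPAC1F8.08) and 12 ORF members, and without replicate 3 it called 1 IGR (SPAC1F8.08) and 0 ORF members, with 23 ORF members at an unadjusted p under 0.05. Loess gave 9 IGR members, 3 higher and 6 lower, against 10% of all features (3.23% higher and 6.81% lower), and 21 ORF members, 1 higher and 20 lower, against 9.53% (2.97% higher and 6.57% lower). The median over members was 0.05 for IGR and -0.18 for ORF features, against 0.04 and 0.01 over all features.

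The next highest IGR members for Med15-myc were SPAC977.14c, SPAC186.06, SPAC11D3.18c and fex1 (0.79 to 1.21) and the next lowest gal7, SPAC11D3.16c, plb4 and SPBPB2B2.15 (-0.91 to -0.74), none past the test. Over ORFs SPAC11D3.06, SPAC11D3.15, SPAC5H10.03 and adh4 (0.48 to 0.58) followed SPAC1F8.08, and SPAC11D3.04c, SPBPB10D8.01 and SPAC750.03c (-0.95 to -0.80) followed the called members. As scanned, the extremes were 0.94 to 1.76 at the IGR features SPAC1F8.08, hsp3102, SPAC11D3.06, SPAC977.13c and SPAC186.06 and -2.48 to -0.69 at amf1, pan5, SPAC869.04, plb4 and tgd1. Over ORFs they were 0.48 to 1.22 at SPAC11D3.06, SPAC1F8.08, SPAC5H10.03, SPBC1683.12 and SPBC1683.04 and -3.39 to -1.85 at SPAC977.15, gal1, SPBPB2B2.07c, SPBPB2B2.04 and SPAC11D3.10. Several of these rest on 1 sample, as at gal1, with -0.94, -0.95 and -8.12.

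The comparison with wildtype could be made with the H3 signal, in which input cannot be divided out. Across members the mean H3 signal correlated with the mean input signal at Pearson's r of 0.90 (delta-hrp1) and 0.92 (delta-med15) over 107 IGR features, and of 0.86 and 0.89 over 118 ORF features, which are from the same hybridisations and share probe and DNA content. The wildtype samples were both Cy3, and their signal over background cannot be given, so that the size of a difference at a dim feature is not exact. Over IGR features limma called 11 of 107 members in delta-hrp1, 7 higher and 4 lower, against 12.4% of all features (4% higher and 8.35% lower). Over ORFs it called 39 of 118 tested members, 25 higher and 14 lower, against 27.2% of all features (13.5% higher and 13.7% lower). Members' medians were 0.29 on the IGR array, against -0.08 over all features, and 0.28 on the ORF array, against 0.04. In delta-med15 it called 1 IGR member, SPBPB2B2.19c, which was higher, against 0.185% of all features (0.041% higher and 0.144% lower). Over ORFs it called 6 in delta-med15, 4 higher and 2 lower, against 5.01% (2.78% higher and 2.23% lower). In delta-hrp1 the IGR count was 1 without either wildtype sample (SPBPB2B2.19c) and 20 without delta-hrp1 replicate 1, and the ORF count was 26 without delta-hrp1 replicate 2 and 0 without wildtype replicate 1 or 2, with 44 and 34 members at an unadjusted p under 0.05.

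The largest difference was over the IGR feature of SPBPB2B2.19c, the spotted member with a place in the gene order that is closest to the end of the right arm of chromosome II, which encodes a protein with transmembrane helices and has 3 further copies. Its H3 signal was 3.51, 3.91 and 2.84 in delta-hrp1, 1.13 and 1.61 in delta-med15, and -3.13 and -5.16 in wildtype. The 3 strains did not overlap, and the signal was higher in delta-hrp1 (7.80 ± 0.68, adjusted p = 0.00209) and in delta-med15 (5.86 ± 0.78, adjusted p = 0.0191) than in wildtype. Like the other members named by their calls against wildtype, it was picked by that difference, so the lack of overlap is no further test. The same feature differed in input between the deletions, with 2.29, 2.95 and 2.45 in delta-hrp1 and 0.99 and 1.26 in delta-med15 (1.40 ± 0.50, adjusted p = 0.0391). Relative to input its H3 was 1.02, 1.00 and 0.51 in delta-hrp1 and -0.02 and 0.30 in delta-med15, not past the test in either. Over its ORF the H3 signal was 0.553, 2.099 and 1.658 in delta-hrp1, -1.07 and -0.45 in delta-med15, and 0.80 and 1.23 in wildtype. There the delta-hrp1 samples overlapped wildtype, and both delta-med15 samples lay below wildtype, the other way from the IGR. The ORF input was also higher in delta-hrp1 than in delta-med15.

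SPAC869.04, the formamidase-like gene that was high relative to input in both deletions, had an IGR H3 signal of 1.37, 1.13 and 0.74 in delta-hrp1, -0.92 and 0.62 in delta-med15, and -1.34 and -3.63 in wildtype. The delta-hrp1 samples lay above both wildtype samples (3.88 ± 0.74, adjusted p = 0.0185), and its ORF feature was called in the same direction in delta-hrp1 (2.03). Also higher in delta-hrp1 over IGRs were SPBPB2B2.07c (3.45) and SPAC977.06 (3.12), both uncharacterised and each with 3 further copies, gdt1 (3.015), the sulfate transporter gene sul2 (2.65) and SPBPB2B2.20c (2.16). The galactokinase gene gal1 was lowest, with -3.74, -4.50 and -2.95 in delta-hrp1, -1.94 and -2.87 in delta-med15, and -0.93 and -0.17 in wildtype (delta-hrp1 -3.54 ± 0.57, adjusted p = 0.0173). No deletion sample of gal1, picked by its difference from wildtype, reached the wildtype range. The other lower ones were SPAC11D3.04c (-3.34), the hydrolase gene hhy1 (-3.32) and the fluoride channel gene fex1 (-2.64), with SPAC11D3.09 (-3.11, adjusted p = 0.0505) short of the threshold. In delta-med15 the next highest after SPBPB2B2.19c were SPAC869.04 (2.81), SPBPB2B2.07c, SPBPB10D8.02c and mal1, and the lowest were SPAC1F8.08, SPBPB2B2.05, SPAC977.15, SPAC5H10.03 and hhy1 (-2.91 to -2.49), none past the test.

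**Figure D3:**
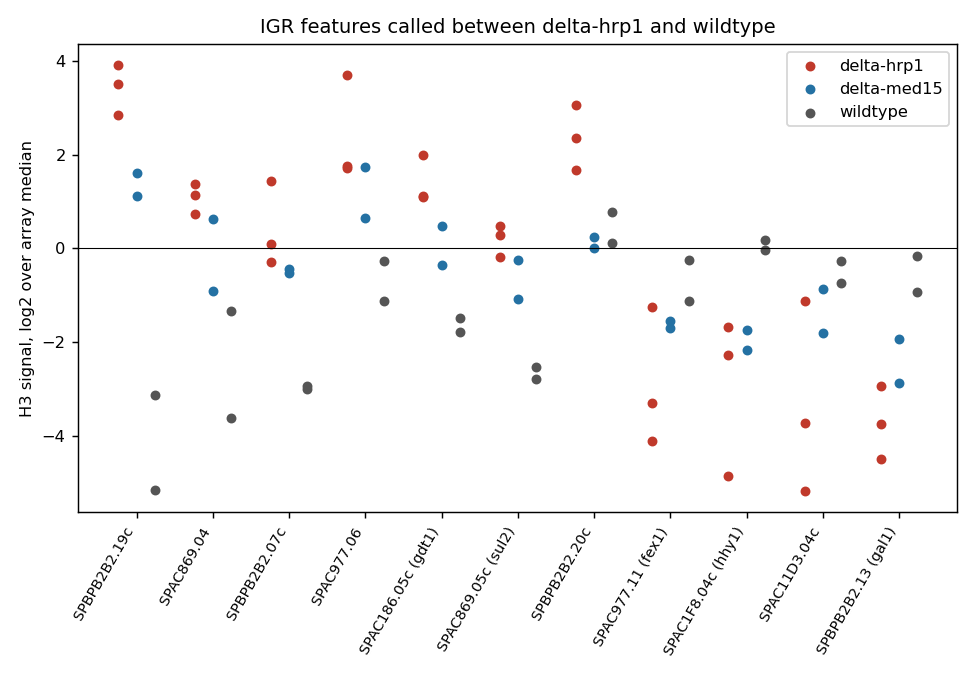
H3 signal (deposited log2 ChIP signal over the array median, not divided by input) of the 11 IGR members called between delta-hrp1 and wildtype, by sample, for delta-hrp1 (red, n = 3), delta-med15 (blue, n = 2) and wildtype (grey, n = 2). SPBPB2B2.19c has the widest gap, with delta-hrp1 at 2.84 to 3.91 and wildtype at -5.16 to -3.13.

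Over ORFs, SPBPB10D8.01, the cysteine transporter gene that is the member closest to the end of the left arm of chromosome II, had 0.41, 0.31 and 0.62 in delta-hrp1, 0.25 and -0.09 in delta-med15, and -3.50 and -3.63 in wildtype. All deletion samples lay above wildtype (delta-hrp1 3.91 ± 0.35, adjusted p = 0.00377, and delta-med15 3.50 ± 0.40, adjusted p = 0.00999). SPAC977.17, of the MIP family of channel proteins, had 2.121, 0.394 and 1.167 in delta-hrp1, 1.38 and 1.05 in delta-med15, and -1.62 and -3.61 in wildtype, and passed in both deletions (3.81 and 3.79). The iron transporter gene pcl1 had 1.28, 1.28 and 0.26 in delta-hrp1, 1.26 and 0.73 in delta-med15, and -1.09 and -2.52 in wildtype. It passed in both as well (2.86 and 2.98), as did icl1, the isocitrate lyase gene (2.84 and 1.90). At these 4 genes every deletion sample was above both wildtype samples. The genes were picked by their calls against wildtype, so this is no further test of a strain difference. Of the ORF members, 27 had both wildtype samples below all deletion samples and 22 had both above. The same count over all features was not made.

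Also among the 10 largest rises in delta-hrp1 were the asparaginase genes SPAC977.12 (2.99) and SPAC186.03 (2.30), fex1 (2.98), the cysteine desulfurase family gene SPAC11D3.10 (2.86), SPAC11D3.11c (2.27) and the pseudogene SPAC977.13c (2.22). The lowest was say1, which encodes a sterol deacetylase, at -4.10, -4.25 and -2.26 in delta-hrp1, -2.55 and -2.72 in delta-med15, and -0.75 and -0.63 in wildtype (delta-hrp1 -3.24 ± 0.47, adjusted p = 0.00711, and delta-med15 -2.53 ± 0.54, adjusted p = 0.0404). Wildtype lay above all deletion samples at say1, which was also picked by its difference from wildtype. It was followed in delta-hrp1 by SPBPB2B2.14c (-3.23), the NADPH dehydrogenase gene SPAC5H10.04 (-3.07), SPAC11D3.02c (-2.70), SPAC1F8.08, hhy1 (-2.29), SPAC11D3.03c (-2.26), the proline transporter gene put4 (-2.19), SPAC5H10.03 (-1.99) and ecm31 (-1.94). The 6 ORF members called in delta-med15 (SPBPB10D8.01, SPAC977.17, pcl1, icl1, SPAC1F8.08 and say1) were all called in the same direction in delta-hrp1. That comparison shares the wildtype samples, and it called 27.2% of all ORF features. How often the calls agreed over all features was not counted, so the agreement cannot be read as particular to the members. Beyond these 6 members, SPAC11D3.11c (2.19) was the next highest and SPBPB2B2.14c, pan6 and SPAC11D3.01c (-2.70 to -2.05) were the next lowest in delta-med15, none past the test. Its count was 25 without delta-hrp1 replicate 1, 3 without delta-hrp1 replicate 2 (SPBPB10D8.01, SPAC977.17 and SPAC1F8.08) and 0 without delta-hrp1 replicate 3 or without any delta-med15 or wildtype sample, with 16 to 35 members then at an unadjusted p under 0.05.

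**Figure D4:**
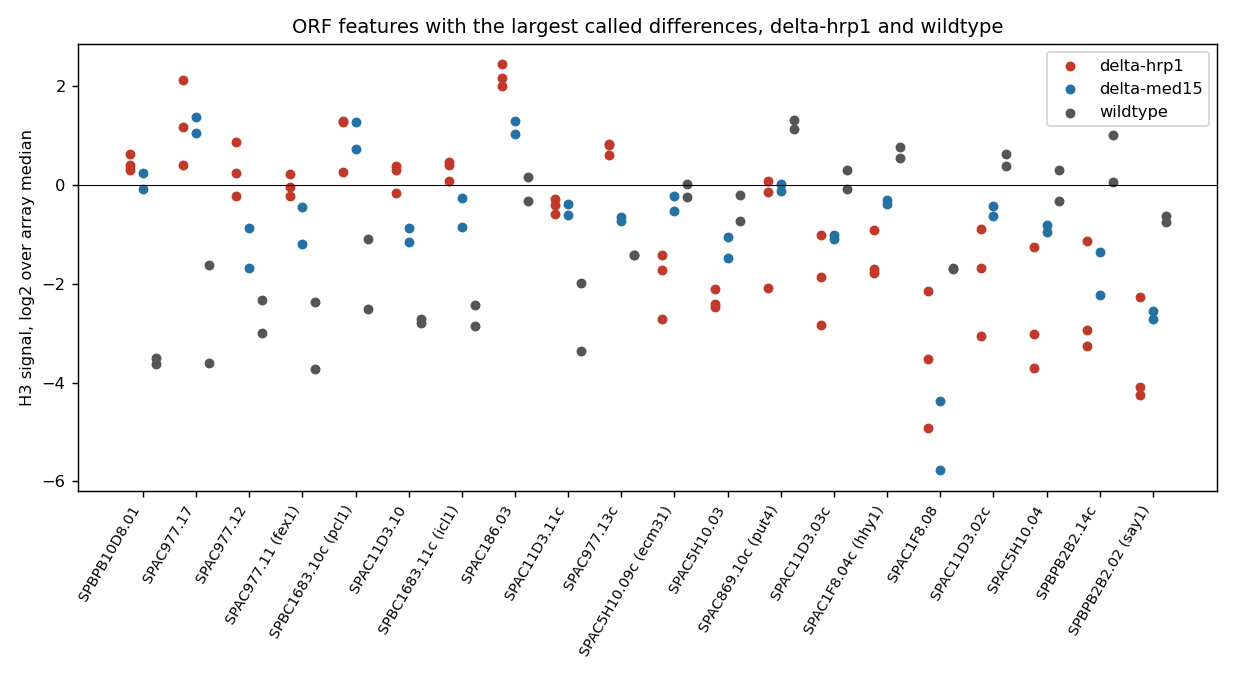
H3 signal (deposited log2 ChIP signal over the array median, not divided by input) of the 10 ORF members with the largest called rises and the 10 with the largest called falls in delta-hrp1, by sample, for delta-hrp1 (red, n = 3), delta-med15 (blue, n = 2) and wildtype (grey, n = 2). At SPBPB10D8.01 the wildtype samples lie at -3.50 and -3.63 and all deletion samples above -0.10.

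By role, transporter genes made up 7 higher and 2 lower of 20 tested ORF members in delta-hrp1 (median 0.40), enzyme genes 9 higher and 7 lower of 47 (median -0.12), and the members in none of the lists 8 higher and 5 lower of 46 (median 0.34). Of all ORF features 13.5% were higher and 13.7% lower. On the IGR array the counts were 1 and 1 of 17 for transporter genes (sul2 higher and fex1 lower), 1 and 2 of 44 for enzyme genes (SPAC869.04 higher, SPAC11D3.04c and hhy1 lower) and 5 and 0 of 41 for the rest. Of all IGR features 4% were higher and 8.35% lower. By arm the IGR medians were 0.66 on the right arm of chromosome I and 0.59 on the right arm of chromosome II, against -0.06 and -0.05 on the left arms of I and II. The arrays agreed in direction at 2 of the 5 members called on both in delta-hrp1, SPAC869.04 (higher) and hhy1 (lower). Of all features, 12.4% were called on the IGR array and 27.2% on the ORF array. Calls shared by both arrays were not counted over all features, so neither number can be read as particular to the members. At fex1 the IGR fell and the ORF rose, and at gdt1 and SPBPB2B2.20c the IGR rose and the ORF fell. Of the members called for H3 signal in delta-hrp1, 1 of 11 IGR features (SPBPB2B2.19c) and 5 of 39 ORF features (hhy1, SPAC11D3.01c, SPAC11D3.10, tgd1 and gal7) also differed in input between the deletions.

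Input DNA itself differed between delta-hrp1 and delta-med15 at 12 of 107 IGR members, 10 higher and 2 lower, against 15.2% of all features (8.51% higher and 6.67% lower). Over ORFs it differed at 12 of 121, 8 higher and 4 lower, against 13.7% (5.69% higher and 7.98% lower). The amino-acid permease gene nrg1 was higher in delta-hrp1 on both arrays, with an IGR input of 0.64, 1.34 and 1.59 in delta-hrp1 and -1.06 and -1.09 in delta-med15 (2.33 ± 0.50, adjusted p = 0.000227) and an ORF difference of 2.07 ± 0.42. The strains did not overlap at nrg1. Also higher over IGRs were the dehydrogenase gene ayr2 (2.14), the transporter gene thi7 (2.06), pan6 (1.88), SPAC1F8.08 (1.85), SPAC5H10.03 (1.71), SPAC750.03c (1.69), mel1 (1.67), SPAC212.03 (1.57) and SPBPB2B2.19c (1.40). The telomere-linked helicase gene tlh1, next to the end of chromosome I and with 3 further copies, was lower in delta-hrp1, at 1.90, 2.06 and 2.98 in delta-hrp1 and 4.07 and 4.23 in delta-med15 (-1.75 ± 0.50, adjusted p = 0.00787). Its IGR input in Med15-myc was 2.00, 0.87 and 1.47. SPBPB2B2.06c was lower too (-1.40), and SPAC186.06 (-1.34), SPAC186.04c (-1.27) and urh1 (-1.01) did not pass. Over ORFs SPAC11D3.01c (1.82), SPBPB2B2.19c (1.60), SPAC11D3.10 (1.55), pan6 (1.53), tgd1 (1.49), SPAC212.05c (1.32) and gal7 (1.13) were higher. SPAC212.06c (-1.49), the nitric oxide dioxygenase gene yhb1 (-1.35), hhy1 (-1.28) and SPAC5H10.10 (-1.13) were lower, and SPAC750.08c (-1.22) did not pass. The IGR count was 3 without delta-hrp1 replicate 2 (nrg1, ayr2 and thi7) and 7 without delta-med15 replicate 1 or delta-hrp1 replicate 3. The ORF count was 6 without delta-hrp1 replicate 2 and 23 without delta-hrp1 replicate 3 or either delta-med15 sample.

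The tlh1 gene passed no H3 or Med15-myc test. Relative to input its IGR H3 was 1.76, 0.52 and 0.08 in delta-hrp1 and 0.11 and 0.16 in delta-med15, and its ORF H3 was 0.36, 0.05 and -0.95 in delta-hrp1 and -1.06 and 0.29 in delta-med15. The strains overlapped on both arrays. Its H3 signal was 3.86, 2.54 and 2.94 over the IGR in delta-hrp1, 4.31 and 4.45 in delta-med15, and 3.99 and 4.19 in wildtype, and over the ORF 0.77, 1.13 and 0.45 in delta-hrp1, 0.47 and 1.51 in delta-med15, and 1.84 and 2.38 in wildtype (delta-hrp1 -1.083 ± 0.392, adjusted p = 0.0713). All deletion samples lay below wildtype over the ORF. Med15-myc at tlh1 was -0.25, 0.02 and 0.13 over the IGR and -0.47, 0.39 and -0.13 over the ORF.

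The galactose genes encode galactokinase (gal1), the transferase (gal7) and epimerase (gal10) that follow it, and the melibiase mel1, which frees galactose from melibiose. For H3 over input 1 of 4 IGR features was higher in delta-hrp1, mel1, at 1.41, 1.32 and 0.74 in delta-hrp1 (1.02 ± 0.35, adjusted p = 0.0255) and -0.05 and 1.03 in delta-med15. Of all IGR features 6.29% were higher. The mel1 IGR input was higher in delta-hrp1 than in delta-med15 as well. At gal7 all values were below the array median, at -0.58, -0.95 and -0.98 in delta-hrp1 (adjusted p = 0.076) and -0.82 and -1.02 in delta-med15 (adjusted p = 0.186), neither past the test. Its IGR Med15-myc values were -0.95, -1.07 and -0.70 (adjusted p = 0.157). At gal10 H3 over input had 0.91, 0.45 and -0.94 in delta-hrp1 and -1.47 and -0.72 in delta-med15, and at gal1 0.04, -1.21 and 0.79 in delta-hrp1 and 0.11 and -0.71 in delta-med15, so the strains overlapped. None of the 4 ORF features passed for H3 over input or Med15-myc. Besides gal1 over its IGR, gal7 differed from wildtype in H3 signal over its ORF, with -1.06, -0.92 and -0.86 in delta-hrp1, -2.69 and -2.79 in delta-med15, and -2.59 and -3.76 in wildtype (delta-hrp1 2.19 ± 0.45, adjusted p = 0.0133). The delta-hrp1 samples were above all others there, and the gal7 ORF was also higher in input.

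At the end of the right arm of chromosome I, the IGR feature of SPAC750.07c had an H3 over input of 1.89, 1.21 and -0.71 in delta-hrp1 and 0.21 and 0.94 in delta-med15, with the Cy5 sample of delta-hrp1 below both delta-med15 samples. The malic enzyme gene SPAC750.08c, next to that end, had an ORF H3 signal of -6.21, 1.52 and 2.84 in delta-hrp1, 3.045 and 2.614 in delta-med15, and 1.076 and 1.136 in wildtype, so that 1 delta-hrp1 sample stood far below all others. The IGR feature of SPBPB10D8.01 had an H3 over input of 0.22, 0.43 and -0.41 in delta-hrp1 and -0.09 and -0.10 in delta-med15 and, unlike its ORF, an H3 signal of 0.26, 0.89 and 0.87 in delta-hrp1, 1.02 and 0.77 in delta-med15, and 0.94 and 0.62 in wildtype. The strains overlapped in that signal. Among 23 genes for telomere proteins and silencing factors, which are no members, 1 IGR feature (pot1) was higher and 0 lower in background-corrected H3 over input in delta-hrp1, against 16.5% of all IGR features called. In H3 signal over ORFs 2 (sir2 and taz1) were higher and 6 lower in delta-hrp1, against 27.2% of all ORF features called.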

How the data were processed

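ChIP and input DNA were hybridised to spotted IGR and ORF arrays, with 2 slides per sample. Per the file headers, the deposited scanner tables hold the intensity of each spot and its local background in both channels. The authors' deposited value tables hold log2 values, which matched the log2 of the background-subtracted ChIP channel over a constant (97.4% of IGR and 96.8% of ORF feature spots were matched to the scanner tables by value). Wildtype had these values only, and that they were made in the same way is inferred. Depth is limited by the signal over background and the number of arrays.

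Log2 ChIP over input was taken as scanned and centred on each array's median. The alternatives were normexp with an offset of 50 and loess. The input signal was background-corrected with normexp, and deposited values at the floor were set to missing. Slides of 1 sample were averaged. Models were fitted with limma 3.58.1 in R 4.3.3 over all features, with dye as a covariate except for Med15-myc, and p-values were adjusted by Benjamini-Hochberg over all features (threshold 0.05, two-sided). Copies were sought with NCBI BLAST 2.17.0 in RefSeq ASM294v3. The limma fits were tested on simulated data with 200 features changed by 2 on the log2 scale. The as-scanned IGR comparison of the deletions recovered 27.5% of the changed features, and the background-corrected one 88.5%. All simulated features shared the same spread and had no dye effect, unlike the real samples, so these shares need not hold for them.

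Named are the 10 largest called rises and falls per comparison, with the largest others up to 5 where fewer than 5 were called, the tlh1 and galactose features and the member nearest each end. Members and lists were chosen with earlier results of these data known. The expression arrays were not used here.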

Additional observations from a re-analysis of the deposited data

How the results depend on the processing

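The counts of called members depended on the background correction. For H3 over input, limma called 0 as scanned in each comparison. With normexp, normexp without the dye covariate, normexp without dim features, and loess, the IGR counts were 22, 18, 22 and 30 in delta-hrp1 and 7, 2, 7 and 23 in delta-med15 (the 2 were SPAC1F8.08 and amf1). Of all IGR features these settings called 16.5%, 10.3%, 16.6% and 18.1% in delta-hrp1 and 6.39%, 1.98%, 6.45% and 23.8% in delta-med15. The ORF counts were 11, 5, 11 and 30 in delta-hrp1 (the 5 were SPAC11D3.03c, SPAC11D3.04c, SPAC186.08c, SPAC1F8.08 and SPAC212.08c) and 2, 2, 2 and 15 in delta-med15 (the 2 were SPAC11D3.01c and SPAC1F8.08), against 9.41%, 4.05%, 9.54% and 17.8%, and 1.70%, 0.470%, 1.87% and 13.6%, of all ORF features. The difference between the deletions was called with loess over 2 ORFs (SPAC11D3.01c and SPAC1F8.08), against 0.0614% of all. For Med15-myc, normexp, normexp with a dye covariate, normexp without dim features, loess and the deposited log2 values gave 2, 5, 2, 9 and 21 IGR members and 2, 16, 3, 21 and 41 ORF members. They called 2.08%, 5.83%, 2.00%, 10% and 10.1% of all IGR features and 0.593%, 10.8%, 0.637%, 9.53% and 33.6% of all ORF features. The 2 and 5 IGR members were SPAC1F8.08 and tgd1, with SPAC186.06, SPAC977.14c and SPAC11D3.18c added by the dye covariate, and the 2 and 3 ORF members were SPAC11D3.03c and hsp3102, with SPAC1F8.08 added by leaving out dim features.

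For the H3 signal, delta-hrp1 had 11 called IGR members, and 6 with values at the floor kept, against 12.4% and 6.87% of all IGR features. In delta-med15 the IGR count of 1 (SPBPB2B2.19c) became 8 with equal median absolute deviations (against 8.23% of all) and 0 with Cy3 samples only (14 at an unadjusted p under 0.05). The ORF count of 6 became 16 without the dye covariate (13.3% of all), 16 with equal deviations (11.4% of all) and 0 with Cy3 samples only (24 at an unadjusted p under 0.05). For input, limma called 0 members on both arrays as scanned (13 and 26 at an unadjusted p under 0.05) and 7 ORF members without the dye covariate (7.18% of all). The cause of these changes was not tested.

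The labels do not say that replicate numbers mark shared preparations, and deviations of same-numbered samples correlated at 0.02 to 0.33 for H3 signal, -0.64 to 0.48 for H3 over input and 0.02 to 0.25 for input. With the replicate block the H3 signal counts were 18 IGR and 44 ORF members in delta-hrp1, against 22.4% of all IGR and 32.7% of all ORF features. In delta-med15 they were 3 IGR (SPAC869.04, SPAC977.15 and SPBPB2B2.19c) and 3 ORF members (SPAC1F8.08, SPAC977.17 and SPBPB10D8.01), against 3.34% and 2.00%. The input counts with the block were 22 and 37, against 26.1% and 28.8% of all features, and limma called 0 for H3 over input between the deletions on both arrays (10 and 17 at an unadjusted p under 0.05). For levels against the array median, a block without the dye covariate, added after seeing the data, called 0 members as scanned in delta-hrp1 (16 IGR and 31 ORF members at an unadjusted p under 0.05) and in delta-med15 (10 and 11). Background-corrected, it called 42 IGR and 24 ORF members in delta-hrp1, against 28.4% and 18.4% of all features, and 15 IGR and 3 ORF members (SPAC11D3.01c, SPAC1F8.08 and SPBPB10D8.02c) in delta-med15, against 11.8% and 2.35%. For the background-corrected difference between the deletions it called 6 IGR members, all higher in delta-hrp1, against 0.927% of all, and 0 ORF members (23 at an unadjusted p under 0.05 with limma). No paired analysis was possible for Med15-myc because it rests on a single group.

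Leaving out 1 sample at a time gave, for background-corrected H3 over input, 2 to 29 IGR and 1 to 11 ORF members in delta-hrp1, 1 to 13 and 1 to 3 in delta-med15, and 0 to 1 (SPAC977.15) and 0 for their difference. As scanned it gave 0 to 3 IGR members in delta-hrp1 (hsp3104, SPAC977.14c and SPAC977.15), 0 to 2 for the difference (hsp3104 and SPAC977.14c), and 0 for the others. For Med15-myc the background-corrected ranges were 0 to 1 IGR and 0 to 12 ORF members. For the H3 signal they were 1 to 20 IGR and 0 to 42 ORF members in delta-hrp1 and 0 to 15 and 0 to 25 in delta-med15, and for input 3 to 12 and 6 to 23. Of 267 other alternatives for 63 called values of single members, 208 kept the call, 59 lost it and 0 turned the direction. With a sample left out 239 of 393 kept it, 154 lost it and 0 turned. The normexp runs that also left out samples or dim features or changed the dye term were chosen after seeing the data.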
